A study of Homo sapiens with 9 samples.

Results

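CDK9 is the kinase of the transcription elongation factor P-TEFb, and its sites on chromatin were compared between A375 human melanoma cells given DMSO, the solvent control, and cells given A77 1726. The comparison takes the 2 deposited CDK9 peak lists whole, 3462 peaks from DMSO and 290 from A77 1726, or 3752 of the 27469 peaks in the 6 lists of the series. Each list comes from 1 library of cells treated for 24 h, with A77 1726 at 25 µM. No replicate error exists, no p-value is given, and a difference between the treatments cannot be told apart from one between the libraries. A375 is an established line, and both groups are the same line with no genetic change named in the labels. A DMSO peak is called kept when a peak with A77 1726 overlaps it by at least 1 bp and missing when none does, and a peak with A77 1726 on no DMSO peak is called new. Missing and new say only that a list holds no peak there. Some other lists of the series are set beside these sites as further readouts. They are CDK9 with A77 1726 plus nucleotides, called with nucleotides below, and DDX21, another protein, in DMSO and with A77 1726. Each is also from 1 library of cells treated for 24 h, with A77 1726 at 25 µM where it was given.

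P-TEFb phosphorylates RNA polymerase II and factors that hold it near the start of genes, which lets polymerase move into the gene body. A part of P-TEFb is held inactive in a complex with the 7SK small nuclear RNA and HEXIM proteins. A77 1726, the active metabolite of leflunomide, blocks dihydroorotate dehydrogenase in the pathway that makes pyrimidines, and so lowers the supply of nucleotides for RNA. The comparison asks where CDK9 is found when that supply is limited.

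Sites are given by coordinates of hg19. No annotation of that build was used, so gene names stand for loci whose place in hg19 is general knowledge, and exon, intron or promoter positions are not assigned. The 2 lists are not on an equal footing, since the shortest peak with A77 1726 was 50 bp, or 0.391 of the shortest DMSO peak.

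Several of the loci hold microRNA genes, and their mature products are shown to identify what those loci encode. Seeds, bases 2 to 8, are in capitals (RefSeq, GRCh38.p14). The first 3 come from MIR100HG, the next 2 lie beside an X-linked stretch of CDK9 peaks, miR-21 lies with VMP1, and the last 3 belong to the miR-23a cluster.
let-7a-5p: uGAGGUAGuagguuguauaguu
miR-100-5p: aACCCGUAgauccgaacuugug
miR-125b-5p: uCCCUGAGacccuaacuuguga
miR-221-3p: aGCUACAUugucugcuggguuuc
miR-222-3p: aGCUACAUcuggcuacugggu
miR-21-5p: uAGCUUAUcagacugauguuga
miR-23a-3p: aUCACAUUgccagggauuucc
miR-27a-3p: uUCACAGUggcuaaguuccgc
miR-24-3p: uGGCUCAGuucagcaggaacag
Of these 9, only miR-221 and miR-222 share a seed.

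Promoters of 4 genes are shown to set a kept, a missing and 2 new loci side by side (RefSeq, GRCh38.p14, plus strand, 250 bases before to 50 after the gene's start). Capitals mark TATAAA on either strand, the letters of a TATA box. CXCL1 was kept, H1-4, a linker histone gene, was missing, and CDKN1A and DKK1 had new peaks. Since the peaks are of another build, whether they cover these letters was not determined.
CXCL1: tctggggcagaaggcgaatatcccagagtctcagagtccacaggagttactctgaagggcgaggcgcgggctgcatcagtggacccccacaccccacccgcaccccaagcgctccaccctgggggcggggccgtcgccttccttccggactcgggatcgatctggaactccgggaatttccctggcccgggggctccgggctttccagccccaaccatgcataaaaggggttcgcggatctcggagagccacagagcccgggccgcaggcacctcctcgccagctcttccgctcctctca
H1-4: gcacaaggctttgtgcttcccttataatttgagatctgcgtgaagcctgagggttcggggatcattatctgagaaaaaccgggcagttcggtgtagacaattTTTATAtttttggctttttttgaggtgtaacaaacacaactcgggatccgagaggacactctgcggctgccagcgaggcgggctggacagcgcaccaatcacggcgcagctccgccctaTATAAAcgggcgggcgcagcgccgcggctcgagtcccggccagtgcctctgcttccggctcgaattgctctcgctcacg
CDKN1A: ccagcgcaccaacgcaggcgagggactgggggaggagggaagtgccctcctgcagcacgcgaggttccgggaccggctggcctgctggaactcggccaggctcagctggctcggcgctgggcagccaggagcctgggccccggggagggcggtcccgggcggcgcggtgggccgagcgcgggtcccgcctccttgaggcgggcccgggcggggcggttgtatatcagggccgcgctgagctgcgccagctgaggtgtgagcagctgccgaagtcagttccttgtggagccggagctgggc
DKK1: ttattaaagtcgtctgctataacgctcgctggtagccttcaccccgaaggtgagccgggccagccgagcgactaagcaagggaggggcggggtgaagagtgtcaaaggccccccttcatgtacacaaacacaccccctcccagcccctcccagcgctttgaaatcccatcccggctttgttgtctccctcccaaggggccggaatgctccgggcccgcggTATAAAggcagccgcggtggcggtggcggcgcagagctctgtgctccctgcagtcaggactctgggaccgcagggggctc
Only exact TATAAA was counted, so a window without it may still hold another form of TATA box. The motif occurred 2 times in the H1-4 window, 1 time in that of DKK1 and not in those of CXCL1 and CDKN1A. It was present in 4049 of 35116 promoter windows of the same length, or 11.5%.

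Most CDK9 sites of DMSO cells had no peak with A77 1726. In all, 187 of 3462 DMSO peaks were kept, a share of 5.4% (95% interval 4.67 to 6.21, exact Clopper-Pearson, counting error only), and 3275 were missing. The share was 2.22% when peaks with A77 1726 shorter than the shortest DMSO peak were left out, and 32.4% when only the 290 strongest DMSO peaks were set against the 290 with A77 1726. Of the 290 peaks with A77 1726, 225 lay on a DMSO peak, or 77.6% (72.3 to 82.3), and 65 were new, or 22.4% (17.7 to 27.7). Most kept sites were met by a single peak: 155 carried 1 peak with A77 1726, 25 carried 2, 5 carried 3 and 2 carried 4. Of the peaks with A77 1726, 194, or 66.9% (61.2 to 72.3), were shorter than the shortest DMSO peak, as were 54 of the 65 new ones.

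Kept sites were the wide and strong ones of the DMSO list. Their median width in DMSO was 479 bp, against 182 bp for missing sites, and their median fold enrichment over the local background, as the authors' caller gave it, was 5.82 against 4.44. In the highest decile of DMSO peaks by −log10 q, 103 of 346 were kept, or 29.8% (25.0 to 34.9). The share was 6.94% (4.49 to 10.1) in the next decile, 5.20% (3.11 to 8.10) in decile 8, 2.02% (0.817 to 4.12) in decile 6 and 0.865% (0.179 to 2.51) in the lowest. Missing sites reached as far up as rank 7 of the DMSO list.

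**Figure D1:**
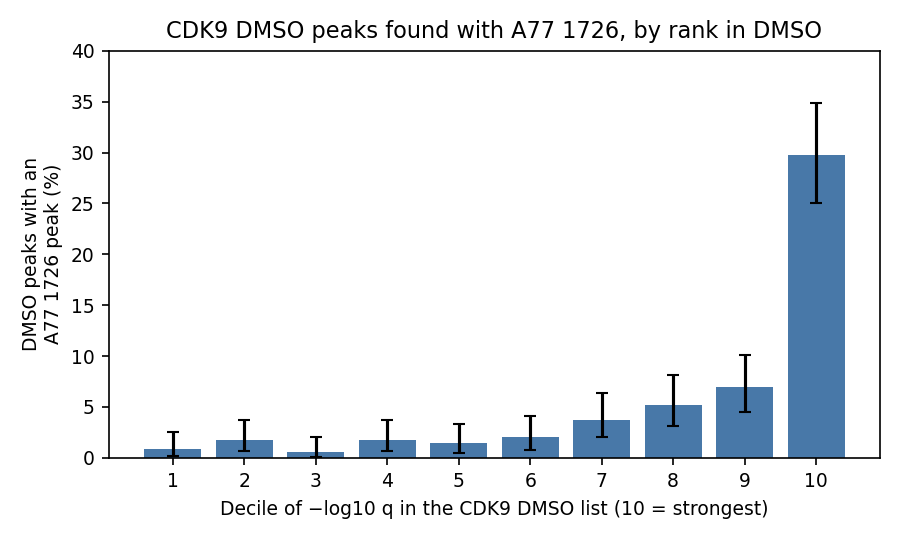
Share of CDK9 DMSO peaks with an A77 1726 peak (vertical axis, percent) in each decile of DMSO −log10 q (horizontal axis, 10 strongest). Bars are shares and whiskers exact 95% intervals for counting error, and the share falls from 29.8% in the highest decile to 0.865% in the lowest.

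Heights were compared as fragments at the summit, recovered from the fold enrichment and −log10 p of each peak. Relative height is the fragments divided by the lowest local background of the list. It is a rough scale, since it rests on a single background value per list and no source used here states the fragment lengths. The lowest backgrounds stood in a ratio of 0.445 (A77 1726 to DMSO), the median backgrounds of the lists in a ratio of 0.399, and backgrounds at the kept sites in a median ratio of 0.327. Scaled by either of the latter, both chosen after seeing the data, ratios of height with A77 1726 to DMSO come out larger, and directions that turn are named below. The lowest relative height listed was 7.69 in DMSO and 15.4 with A77 1726, so low sites could be listed in DMSO alone. Of the 2730 DMSO peaks of at least that height, 176, or 6.45% (5.55 to 7.43), were kept. The share rose to 26.0% (21.5 to 30.8) of 362 peaks at a relative height of 30 or more and 57.6% (44.1 to 70.4) of 59 peaks at 50 or more. When fragments and background of each DMSO peak were scaled by 0.445, 966 peaks still reached the lowest −log10 p of the A77 1726 list, and 139 of them, or 14.4% (12.2 to 16.8), were kept.

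Of 4 loci of small nuclear and nucleolar RNA genes, chosen after their values were seen, nearly all peaks were kept. The 7SK gene, RN7SK, whose RNA holds P-TEFb inactive, had the strongest peak of the A77 1726 list by −log10 q and rank 2 in the DMSO list. It lay at chr6:52860273-52860807 in DMSO and chr6:52860358-52860801 with A77 1726. The summit held 74 fragments in DMSO and 57 with A77 1726. Relative heights were 63.2 and 109, or 1.73 times higher with A77 1726 (2.35 times by backgrounds at kept sites). Fragments were fewer with A77 1726, so the direction depends on scaling by local background. The U2 gene RNU2-2, whose RNA is part of the spliceosome, had relative heights of 109 in DMSO and 132 with A77 1726 at chr11:62608864-62609354. The latter came from 69 fragments, fewer than in DMSO. Local background at this site was 43.7 fragments in DMSO and 11.6 with A77 1726. The direction at U2 thus also depends on scaling by local background.

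All 5 DMSO peaks at the U3 genes of chromosome 17, between 18965085 and 19093687, were kept. U3 is the nucleolar RNA that guides early cleavage of the ribosomal RNA precursor. Their relative heights were 52.96 to 78.6 in DMSO, and with A77 1726 they were 0.680 to 0.963 of the DMSO value. By either other scaling 3 of the 5 were higher, so they have no settled direction. At the U1 genes of chromosome 1, between 16840258 and 17232104, 4 of 5 were kept, with relative heights of 0.556 to 0.874 of those in DMSO, though 2 of the 4 were higher by backgrounds at kept sites. In sum, 11 of 12 peaks of these small RNA loci were kept, or 91.7% (61.5 to 99.8). All 12 were in the highest DMSO decile, where the share over all peaks was 29.8%. Since the loci were chosen with their values known, this interval is no test of whether such genes keep more. SNHG3, which hosts small nucleolar RNAs, is not among the 12 and kept none of its 8 peaks, beside 5.4% of all DMSO peaks. None of the 8 was in the highest decile. U1, U2 and U3 have near-identical copies, so reads may be shared between them. How such reads were placed is not given in the sources used here.

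At the chromosome 1 loci named here, sites of tRNA and 5S ribosomal RNA genes, which RNA polymerase III transcribes, had no peak with A77 1726. The tRNA genes of chromosome 1 held 13 DMSO peaks between 161369409 and 161501100 and the 5S genes held 11 between 228746031 and 228781929. None of these 24 was kept. The 95% interval, 0 to 14.2%, includes the 5.4% of all DMSO peaks, and 2 of the 24 were in the highest decile. These genes too are repeated. Other polymerase III genes had peaks with A77 1726. RN7SK, above, is one. RMRP, which encodes the RNA of the endonuclease RNase MRP, was among the new sites, with 19 fragments at chr9:35657774-35657935 and no CDK9 peak in DMSO or with nucleotides, while DDX21 had a peak there in DMSO.

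Replication-dependent histone genes kept few of their CDK9 peaks, at about the share of the whole list, though many of them were strong in DMSO. These genes lie in clusters, are active in S phase and give RNAs without a poly(A) tail. The large cluster of chromosome 6, between 26020591 and 27870780, held 64 DMSO peaks, of which 2 were kept, and that of chromosome 1, between 149783570 and 149899936, held 17, of which 2 were kept. That is 4 of 81, or 4.94% (1.36 to 12.2), beside 5.4% of all DMSO peaks. The stretch at chr6:27775420-27805996 held 12 of them, none kept. In the highest decile 4 of 28 histone peaks were kept, against 103 of 346 of all. The chromosome 6 stretch also holds genes other than histone genes, and every peak between the ends of each cluster was counted.

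Histone sites made up much of the top of the missing list. The first missing site, at chr1:149831517-149832888, had 88 fragments and a fold enrichment of 8.32 in DMSO. Others of the top 10 missing sites were at chr1:149822546-149823957 with 71 fragments, chr1:149811678-149812849 with 66, chr1:149813259-149814370 with 71 and chr1:149824051-149825481 with 60. All of these chromosome 1 sites lie in 1 stretch, at chr1:149804084-149833122. Whether reads are shared between them was not tested. The H1-4 site, at chr6:26156464-26158095, had 49 fragments and the highest fold enrichment of the DMSO list, 15.5. The 4 histone sites that were kept were lower with A77 1726, at 0.450, 0.4996, 0.455 and 0.578 of their DMSO relative height, and lower by both other scalings.

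The rest of the top 10 missing sites were spread. They lay at chr1:145382693-145383176 with 80 fragments, chr5:141736151-141737185 with 53, chr17:56756594-56757175 with 61 and chr19:13947711-13948144 with 65. The last of these lies beside the miR-23a cluster shown above, where none of 2 DMSO peaks was kept. All 10 of the top missing sites had a CDK9 peak in the library with A77 1726 and nucleotides, as did 88.5% of all missing sites of the highest decile.

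SERPINE2 held the most peaks of any stretch with A77 1726. Whether it had more than in DMSO depends on length: it had more in all, but 16 with A77 1726 against 31 when those shorter than the shortest DMSO peak were left out. It encodes protease nexin-1, a secreted inhibitor of serine proteases. The stretch at chr2:224836877-224907328 held 31 DMSO peaks and 40 with A77 1726. Of the DMSO peaks 14 were kept, and 27 peaks were new, out of 65 new peaks in the whole list. The peaks covered 6710 bp in DMSO and 6441 bp with A77 1726, of which 2460 bp were shared, so there were more peaks but no more sequence under them.

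The strongest SERPINE2 peak lay near one end of the stretch. With A77 1726 it was the second of the list, at chr2:224902751-224904031, 1281 bp wide, with 39 fragments and a fold enrichment of 20.1. In DMSO the same place held 2 peaks, with 24 and 36 fragments. Its relative height was 74.9 with A77 1726, against 20.5 and 30.7 in DMSO. All 14 kept sites of the locus were higher with A77 1726, by 1.41 to 3.65 times, and by all 3 scalings. The highest of these ratios, 3.65, and that of 2.44 both come from the peak just named, set against 2 DMSO peaks. The A77 1726 list holds no height under 15.4, so the 7 of these sites that were below it in DMSO had to be higher if kept. In fragments, most of the 14 were lower with A77 1726, such as 14 against 21 in DMSO at chr2:224898935-224899063. Others were higher, such as 39 against 24 at chr2:224902779-224903702. The direction at this locus thus depends on scaling by local background.

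**Figure D2:**
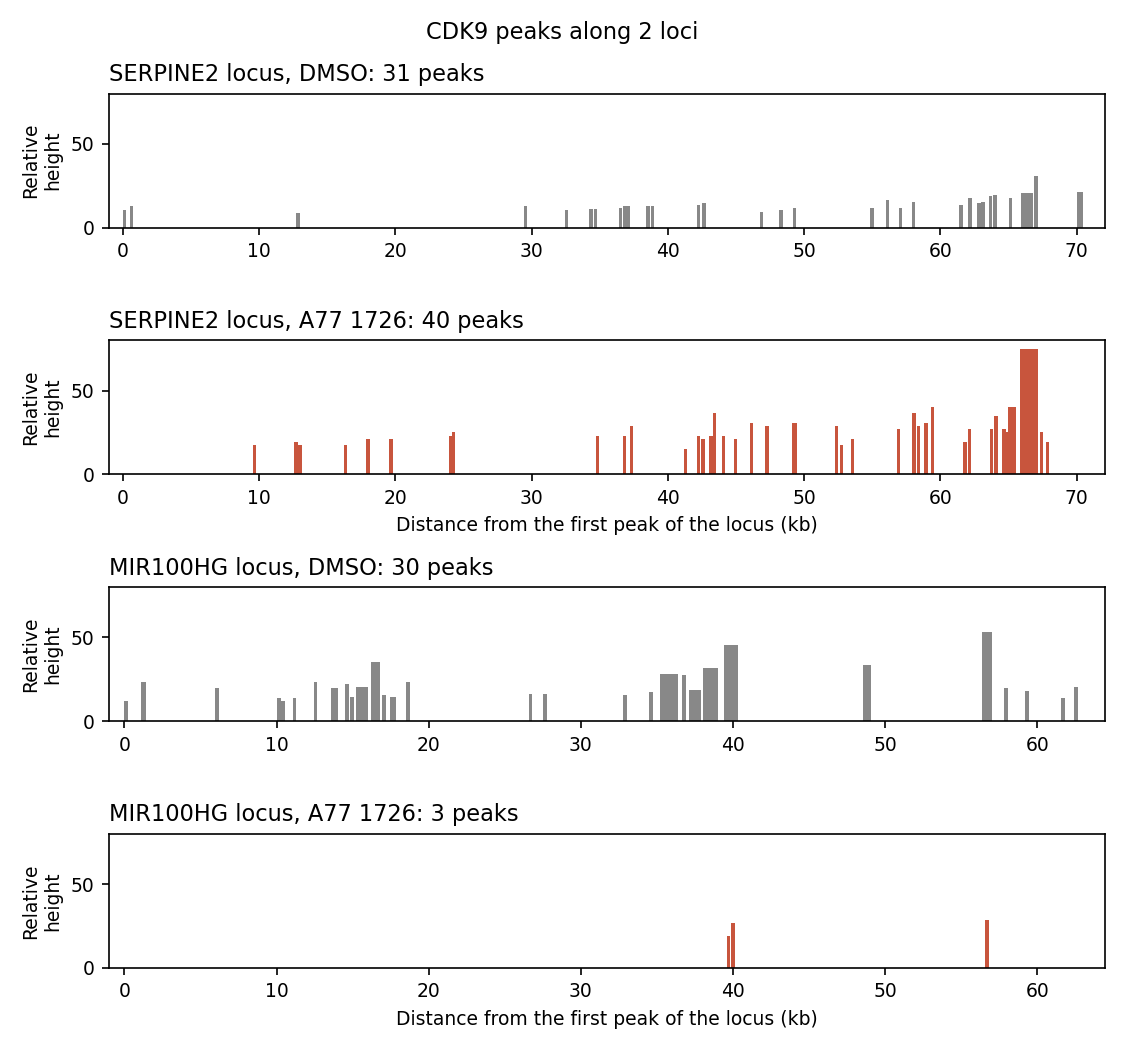
CDK9 peaks along the SERPINE2 and MIR100HG loci, as distance in kb from the first peak of the locus (horizontal axes) and relative height of each peak (vertical axes, all from 0 to 80). SERPINE2 held 31 peaks in DMSO and 40 with A77 1726 (16 of them at least as long as the shortest DMSO peak), the tallest at a relative height of 74.9, while MIR100HG held 30 and 3. The narrowest bars are drawn wider than the peaks so that they can be seen.

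New sites were also found at CDKN1A and DKK1. CDKN1A encodes p21, an inhibitor of cyclin-dependent kinases and a well-known target of p53. It had 3 new peaks, at chr6:36646530-36646693, chr6:36646936-36646985 and chr6:36647245-36647294, with 14, 11 and 11 fragments. Its DMSO list held 1 peak, further along at chr6:36648292-36648526 with 16 fragments, which was missing. No peak was listed at this locus with nucleotides. DKK1, a secreted inhibitor of Wnt signalling, had 3 new peaks with 12, 9 and 11 fragments between 54074411 and 54076326 of chromosome 10, and none of its 4 DMSO peaks, with 12 to 22 fragments, was kept. These are among the lower peaks of the list, whose median was 15 fragments. Of the 3 new peaks at each gene, 1 at CDKN1A and 0 at DKK1 were at least as long as the shortest DMSO peak.

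Most new sites lay close to a DMSO peak. Of 65, 21 were within 200 bp of one, 34 within 1 kb and 60 within 10 kb, and 3 were more than 100 kb away. Their median width was 67 bp and their median height 12 fragments. Of the top 4 new sites by −log10 q, 3 lay together at chr8:43092889-43094827, near the centromere of chromosome 8, with 57, 23 and 36 fragments. The other was at chr16:81995539-81995596 with 17 fragments. The chromosome 8 stretch also held 1 kept DMSO peak, with 34 fragments in both lists, and 4 peaks with nucleotides. Local background there was up to 9.95 fragments, against a median of 1.66 in the A77 1726 list. Next among the new sites came chr7:20601319-20601391 with 16 fragments, chr2:224889151-224889216 and chr2:224874084-224874223 of SERPINE2 with 15 each, chr5:149320887-149320939 and chr8:98450886-98451011 with 17 each, and chr2:224901559-224901773 with 13.

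Long nuclear RNA loci kept part of their peaks. NEAT1, the scaffold RNA of paraspeckles, held 16 DMSO peaks between 65186734 and 65209586 of chromosome 11, 4 of them kept, and 7 peaks with A77 1726. The tallest, at chr11:65190174-65192404, had 82 fragments in DMSO and 34 with A77 1726, or relative heights of 70.04 and 65.3. MALAT1, an abundant RNA of nuclear speckles, held 16 DMSO peaks between 65264806 and 65275434, 6 of them kept, and 8 with A77 1726. Its tallest, at chr11:65266355-65267253, had 59 and 25 fragments, or relative heights of 50.4 and 48.0. By either other scaling the tallest peaks of NEAT1 and MALAT1 were both higher with A77 1726, so they have no settled direction. Together 10 of 32 peaks were kept, or 31.3% (16.1 to 50.01), and 4 of the 5 in the highest decile, beside 5.4% and 29.8% of all DMSO peaks. The loci were chosen after their values were seen and their peaks are neighbours. The interval, for counting error only, is therefore no test of whether such loci keep more.

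**Figure D3:**
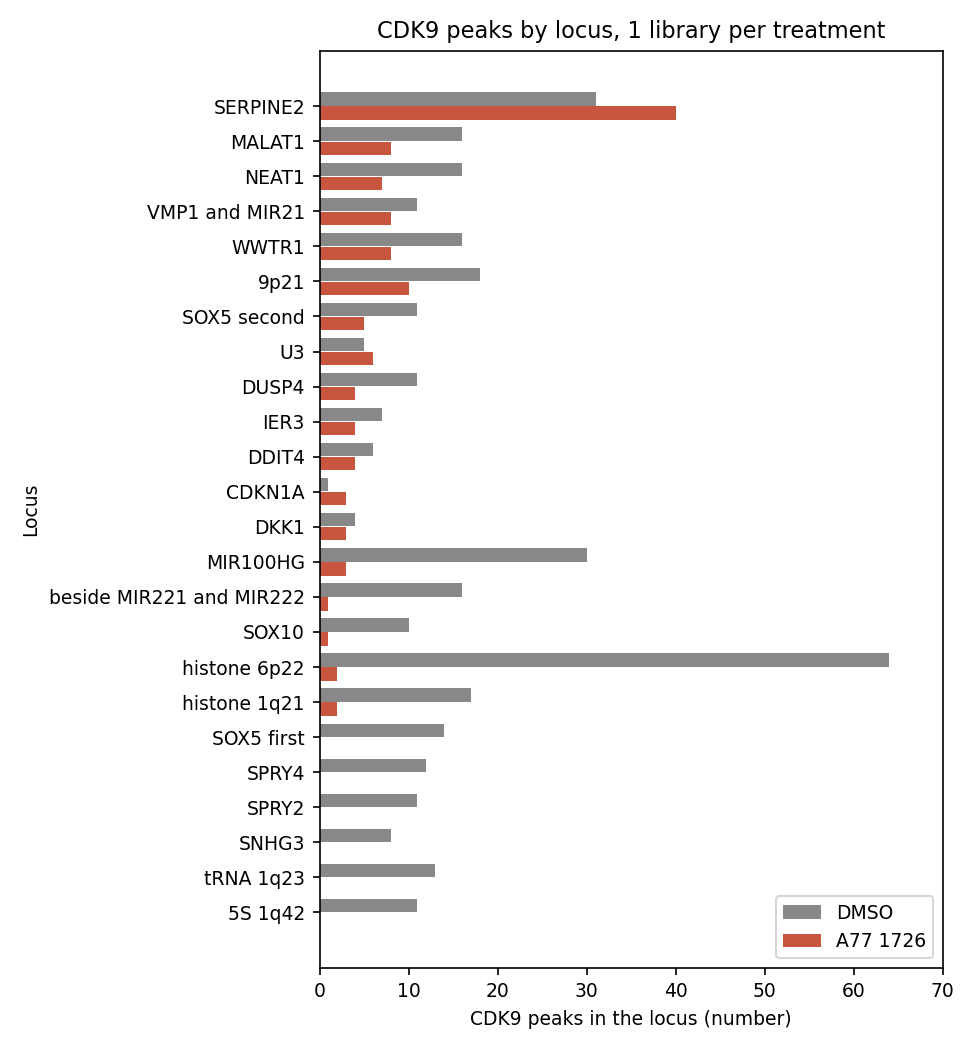
Number of CDK9 peaks (horizontal axis) in DMSO (grey) and with A77 1726 (red) at loci named in the text (vertical axis), 1 library per treatment. SERPINE2 had 31 and 40 peaks, U3 5 and 6 and CDKN1A 1 and 3, but 16, 4 and 1 with A77 1726 without those shorter than the shortest DMSO peak. DKK1 had 4 and 3, but 0 with A77 1726 by that limit. The 6p22 histone cluster had 64 and 2.

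The microRNA loci held 59 DMSO peaks in all. At VMP1 and MIR21, between 57906695 and 57920914 of chromosome 17, 4 of 11 DMSO peaks were kept and 8 peaks were listed with A77 1726. The widest DMSO peak there, at chr17:57914901-57916534, had 60 fragments in DMSO and 18 with A77 1726. MIR100HG held 30 DMSO peaks between 122011349 and 122073949 of chromosome 11, of which 2 were kept, both lower with A77 1726 by all 3 scalings, at 0.544 and 0.594 of their DMSO relative height. The stretch beside MIR221 and MIR222, at chrX:45607254-45634727, held 16, of which 1 was kept. Of the peaks of these loci and the miR-23a cluster, 7 were kept, or 11.9% (4.91 to 22.9), an interval that includes 5.4%, 3 of them among the 11 in the highest decile.

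Genes that restrain ERK signalling, the pathway that drives most melanomas, kept peaks at about the share of the whole list. SPRY2 and SPRY4, inhibitors of signalling from receptor tyrosine kinases, held 11 DMSO peaks at chr13:80910557-80915516 and 12 at chr5:141676472-141705652, and none had a peak with A77 1726. Their tallest DMSO peaks had 46 and 39 fragments. DUSP6, a phosphatase of ERK, held 4, also without one. DUSP4, a related nuclear phosphatase, kept 3 of 11 and had 1 new peak. In all 3 of 38 were kept, or 7.89% (1.66 to 21.4), beside 5.4% of all, 4 of the 38 being in the highest decile.

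Counts at single genes are small and are given as values beside the 5.4% of all DMSO peaks. DDIT4, an inhibitor of mTORC1 induced by stress, had 1 kept peak 2546 bp wide at chr10:74033602-74036147, met by 4 peaks with A77 1726, with 63 fragments in DMSO and at most 27 with A77 1726. Its other 5 DMSO peaks were missing. IER3 kept 2 of 7, PHLDA1 2 of 9 and ID1, an inhibitor of basic helix-loop-helix factors, 1 of 6. CXCL1, a chemokine, had 1 DMSO peak with 22 fragments, met by 2 peaks with A77 1726 with 16 and 17 fragments, and its relative height was 18.8 and 32.6.

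SOX10, a factor of neural crest and melanocytes, kept 1 of 10 peaks between 38365089 and 38380878 of chromosome 22. SOX5 had a stretch of 14 DMSO peaks at chr12:24080857-24103492, none kept, and another of 11 at chr12:24186663-24199167, of which 5 were kept. In the second, chr12:24191993-24192471 had 41 fragments in DMSO and 8 with A77 1726, or 0.439 of its relative height, the lowest ratio of the 187 kept sites. WWTR1, which encodes the Hippo pathway effector TAZ, kept 6 of 16 in the stretch at chr3:149286425-149321548. Among them were chr3:149293237-149294375 with 87 and 26 fragments and chr3:149306982-149307444 with 58 and 13. The next stretch, at chr3:149336543-149359114, held 8 DMSO peaks, none kept. On the other side, a kept peak lay at chr3:149271586-149271851. Over all DMSO peaks 5.4% were kept, and 29.8% in the highest decile. That decile held 4 of the 16 peaks of the first stretch at WWTR1 and 1 of the 8 in the next. It also held 5 of the 11 of the second SOX5 stretch.

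The 9p21 region between CDKN2B and DMRTA1 held the first DMSO peak, chr9:22158906-22159453, which had 95 fragments in DMSO and 35 with A77 1726. Of its 18 DMSO peaks between 22142001 and 22218350, 7 were kept, beside 5.4% of all DMSO peaks. Of the 18, 8 were in the highest decile, where 29.8% of all peaks were kept. The relative heights of the 7 with A77 1726 were 0.570 to 0.913 of those in DMSO, but 5 of the 7 were higher by backgrounds at kept sites. The rest of the top 10 kept sites, besides those named above, were chr1:149223655-149224240 with 109 and 37 fragments, chr9:22147625-22148652 with 83 and 28, chr1:16840258-16840866 of the U1 genes with 108 and 42, and chr11:122050775-122051689 of MIR100HG with 53 and 14. HEXIM1, the protein that holds P-TEFb on 7SK, had a single DMSO peak, missing with A77 1726, at chr17:43225106-43225325 with 29 fragments.

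**Figure D4:**
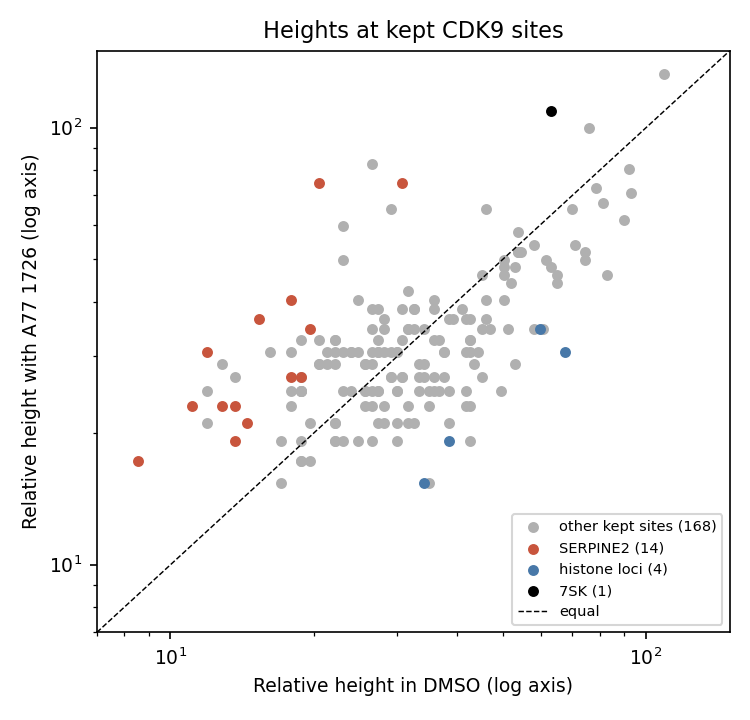
Relative height in DMSO (horizontal) and with A77 1726 (vertical), both log axes, at the 187 kept sites; the dashed line marks equal heights. The 14 SERPINE2 sites and 7SK lie above the line and the 4 histone sites below it, by all 3 scalings, which all use local backgrounds. At 7SK and most of the SERPINE2 sites, fragments were fewer with A77 1726. No point lies under 15.4 on the vertical axis, the lowest height of that list.

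Over all kept sites the median ratio of relative heights was 0.948 (quartiles 0.764 and 1.31), with 84 sites higher and 103 lower with A77 1726. By the median backgrounds of the lists the median was 1.06, with 111 higher and 76 lower, and by backgrounds at kept sites 1.29, with 149 higher and 38 lower, so no general direction is given. This covers only sites listed in both, so it does not describe the missing ones. Narrow peaks made up 3 of the 5 strongest with A77 1726: chr12:112704998-112705096 with 43 fragments, chr2:76672377-76672477 with 31 and chr22:42961096-42961188 with 26, which had 31, 27 and 27 in DMSO. Each of these is shorter than the shortest DMSO peak. Whether the shorter peaks of this list affect such ratios was not tested. The other named peaks of that list on DMSO sites were chr1:33899459-33899676 with 26 fragments, and those of RNU2-2, NEAT1 and the U3 genes.

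By neighbourhood, 76 stretches held at least 5 peaks of both lists together with gaps of at most 10 kb. Of these, 30 held no peak with A77 1726 and 7 held more with A77 1726 than in DMSO. Those with at least 5 peaks with A77 1726 numbered 10. Apart from the loci above, they were chr3:15672616-15696978 with 7 DMSO and 5 A77 1726 peaks, chr4:189321875-189333263 with 7 and 5, and chr13:80510084-80512244 with 3 and 5, all 3 of its DMSO peaks being kept. At chr16:22018627-22038869, 1 of 19 was kept. The share kept by chromosome ran up to 10.6% (7.0 to 15.3) on chromosome 2 and 10.2% (6.17 to 15.7) on chromosome 11 among those with over 100 DMSO peaks. On chromosome 7 it was 0 of 182 (0 to 2.01). SERPINE2 held 14 of the 25 kept sites of chromosome 2.

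The other libraries, which the choice of kept sites did not use, were set beside these sites. Of the kept sites 167 of 187, or 89.3% (84.0 to 93.3), had a CDK9 peak with A77 1726 and nucleotides, against 42.7% (41.0 to 44.4) of missing sites, and within the highest DMSO decile the shares were 99.0% (94.7 to 99.98) and 88.5% (83.8 to 92.2). Of the new sites 19 of 65 had one, or 29.2% (18.6 to 41.8). A DDX21 peak of DMSO cells lay on 21.4% (15.7 to 27.97) of kept and 17.6% (16.3 to 18.9) of missing sites, and intervals overlapped also in the highest decile, at 34.0% (24.9 to 44.0) and 27.2% (21.7 to 33.2). A DDX21 peak of cells with A77 1726 lay on 20.9% (15.3 to 27.4) of kept and 10.2% (9.21 to 11.3) of missing sites, and in the highest decile on 29.1% (20.6 to 38.9) and 13.99% (9.89 to 19). Kept sites were wider, at a median of 479 bp against 182 bp for missing ones, and an overlap of 1 bp was enough. How far width bears on the shares with nucleotides and with DDX21 was not tested. Only 1 new site had a DDX21 peak in DMSO, the RMRP site.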

How the data were processed

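CDK9 chromatin immunoprecipitation libraries of A375 cells, 1 per treatment, were analysed from 2 narrowPeak lists, grouped by their titles, with the other 4 lists as further readouts. The 3 inputs were not used here. Per the submitters' processing notes, Bowtie, MACS2 2.0 and hg19 were used. How each was used, and with which control, was not given in the sources used here. Read totals are not given either, so depth is unknown except through the backgrounds below. Each deposited list gives a fold enrichment (a ratio to local background at the summit), −log10 p and −log10 q, as the authors' caller wrote them. The score column of the deposited CDK9 lists is −log10 q times 10 without its decimals, and was left aside.

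Overlaps, exact binomial intervals (SciPy 1.17.1) and stretches were computed in Python 3.11.15. Intervals cover counting error only and treat peaks as independent. Fragments over a summit were the whole number k that met fold enrichment = (k + 1)/(background + 1) and −log10 p as a Poisson upper tail, within 0.001 for all 3462 and 290 peaks. This also used the p column. The lowest backgrounds were 1.17 in DMSO and 0.521 with A77 1726. With the shortest peak taken as fragment length, tags with A77 1726 were 1.14 times those in DMSO. Both steps were tested on simulated data.

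Peaks were named by rank of −log10 q, the top 10 of each kind: kept, missing, with A77 1726 on a DMSO peak, and new. Stretches named were those with at least 5 A77 1726 peaks or the most DMSO peaks. Loci with gene names were chosen after their values were seen, and members and lists with earlier results of these data known. All 44 gene symbols are on the chromosome of their locus in the GRCh38 gene table. Counts over the gene lists first planned needed an hg19 annotation and were dropped. Alternatives were other overlap rules, thresholds, lengths, merging and list sizes.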

Additional observations from a re-analysis of the deposited data

How the results depend on the processing

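Of 42 alternatives, 34 of them planned and 8 added after the data were seen, 20 left the value inside its own 95% interval (for the number of new peaks, less than 1.5 times away), 19 moved and 3 turned the direction. Each group is 1 library, so differences between treatments and between libraries cannot be told apart, and leaving out a replicate was not possible. No paired analysis was possible because each group holds a single library and no test was made. Leaving out the mitochondrial genome removed 1 peak and could hardly move a value.

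With the shorter A77 1726 peaks left out, 2.22% of DMSO peaks were kept, 88.5% of A77 1726 peaks lay on a DMSO peak, 11 were new, and 14.7% of the highest decile was kept. With the same number of top peaks the first 3 values were 32.4%, 41.7% and 169. At a −log10 q of at least 5, 4.57% were kept and 25 peaks were new, and the highest decile of DMSO peaks above that limit was kept at 38.8%. Merging peaks within 1 kb gave 83.9% of A77 1726 peaks on DMSO peaks and 31 new, and summits within 250 bp gave 72.1%. Without the SERPINE2 stretch these were 84.8% and 38 new. Limiting DMSO peaks to the heights of the A77 1726 list gave 6.45% kept, and limiting them to those that reached its lowest −log10 p after scaling gave 14.4%. Within the highest decile, DDX21 peaks lay on 34.0% of kept and 27.2% of missing sites. The median ratio of relative heights at kept sites turned from 0.948 to 1.06 by the median backgrounds of the lists and to 1.29 by backgrounds at kept sites. At SERPINE2, 16 peaks with A77 1726 were left against 31 in DMSO when the shorter ones were left out. The last follows from the lengths left out, and the cause of the others was not tested.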
